A study of Oryctolagus cuniculus with 35 samples.

Results

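FOSL1 and ANKRD1 are 2 of the 23669 rabbit genes in the deposited lung tables, taken by their symbols (ENSOCUG00000011143 for FOSL1 and ENSOCUG00000006901 for ANKRD1). They were selected on their levels and fold changes in these same libraries, so those values are a description, without a test. The study sequenced lung messenger RNA of 35 New Zealand rabbits, 7 per group and 1 library per rabbit. Rabbits of 4 groups were infected with pneumococci and ventilated in an injurious way, and 4 h after inoculation they received their therapy. The CEF+MSC group was given ceftaroline, a cephalosporin antibiotic (20 mg/kg, intramuscular), together with mesenchymal stromal cells from human umbilical cord (3000000 cells per kg, intravenous). The CEF group was given ceftaroline, the MSC group the stromal cells, and the NaCl group saline. The healthy group was uninjured and also received saline. Pneumonia and ventilation were always combined, so what each contributed cannot be told apart, and lungs were collected at 24 h or at an earlier death.

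FOSL1 encodes Fra-1, a FOS-family subunit of the dimeric transcription factor AP-1. Its gene is switched on after growth factor, cytokine or stress signals through the ERK pathway, and AP-1 acts on genes of matrix turnover, migration and inflammation. ANKRD1 encodes a muscle ankyrin repeat protein (CARP), which binds titin in heart and skeletal muscle and rises there with stretch or overload. Outside muscle ANKRD1 is a widely used target gene of YAP and TEAD, the output of the Hippo pathway, which responds to cell spreading and mechanical load.

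Reads per library ranged from 7567008 to 33209729, the deepest of them in the CEF group. Levels are given as reads on a common scale, that is, reads divided by a size factor computed over all 35 libraries. They are not per length, so the levels of the 2 genes are not compared with each other. The lung label was checked against epithelial markers. For alveolar type I cells 6 of 8 markers had reads, and for alveolar type II cells 3 of 8, while SFTPC, SFTPD and ABCA3 were listed at 0 in all 35 libraries. Some sample titles end in PD or PG, whose meaning the labels do not give. PG marks 2 MSC, 3 NaCl and 1 healthy library, PD marks 4 healthy libraries, and no library given ceftaroline has either. A further mark of unstated meaning, S00, is carried by every healthy library (7 of 7) and otherwise by NaCl replicate 2 alone, so it cannot be told apart from health in most of the NaCl over healthy comparison. In the MSC and NaCl groups these titles also start with other letters than the rest. The therapy groups thus differ in the title ending. FOSL1 and ANKRD1 fold changes of comparisons that hold such libraries are also given without them. List estimates and marker correlations are given over all libraries only. MSC replicate 7 stood apart in ANKRD1 and is treated in the same way. A Dixon gap rule on log2 levels (gap to the nearest library over the range of the group) gave 0.470 for it. That was not past the critical value, and no other library was past it for either gene.

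FOSL1 was nearly silent in healthy lung and present in every pneumonia lung, with the highest levels in NaCl lungs and the lowest pneumonia levels in CEF+MSC lungs. In CEF+MSC lungs the 7 libraries ran from 11.5 to 152 reads, with a median of 36.4. In CEF lungs they ran from 12.4 to 500 with a median of 262.5. MSC lungs ran from 15.1 to 1216 reads with a median of 141, and NaCl lungs from 286 to 1283 with a median of 726. Healthy lungs held 0 to 5.22 reads with a median of 2.06, and 3 of the 7 healthy libraries had no FOSL1 read. A count of 0 in those 3 libraries allows levels of up to 3.10, 3.18 and 4.71 reads, counting error only.

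Every pneumonia library of each therapy group lay above every healthy library for FOSL1. The share of all genes with such a separation was 14.7% for NaCl over healthy, 6.54% for MSC, 10.4% for CEF and 5% for CEF+MSC. The 7 CEF+MSC libraries also lay below the lowest NaCl library, a separation that 2.87% of all genes showed. Of the MSC libraries 5 of 7, and of the CEF libraries 4 of 7, were below the lowest NaCl library. By medians the order was NaCl, CEF, MSC, CEF+MSC and healthy. CEF and MSC overlapped nearly throughout, and by means MSC (311 ± 419) stood before CEF (209 ± 189; SD, n = 7 each), so these neighbours did not differ beyond their spread.

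ANKRD1 was low in healthy lung, higher in every NaCl lung, and spread most widely among the MSC lungs. The 7 CEF+MSC libraries ran from 12.2 to 116 reads with a median of 23.7, and the CEF libraries from 5.57 to 159 with a median of 36.2. MSC lungs ran from 7.28 to 11613 reads with a median of 169. NaCl lungs ran from 63.2 to 1528 reads with a median of 219.5. Healthy lungs ran from 5.16 to 21.6 reads with a median of 8.20.

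Only the NaCl group was free of overlap with healthy for ANKRD1, a separation that 14.7% of all genes showed. Above the highest healthy library lay 4 of 7 CEF+MSC libraries, 4 of 7 CEF libraries and 6 of 7 MSC libraries. The order by medians was NaCl, MSC, CEF, CEF+MSC and healthy. NaCl and MSC overlapped, as did CEF and CEF+MSC, and neither pair differed beyond its spread. As CPM, which scales by total reads, the median of MSC (16.6) stood above that of NaCl (12.7), so the order of those neighbours depends on the scaling.

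**Figure D1:**
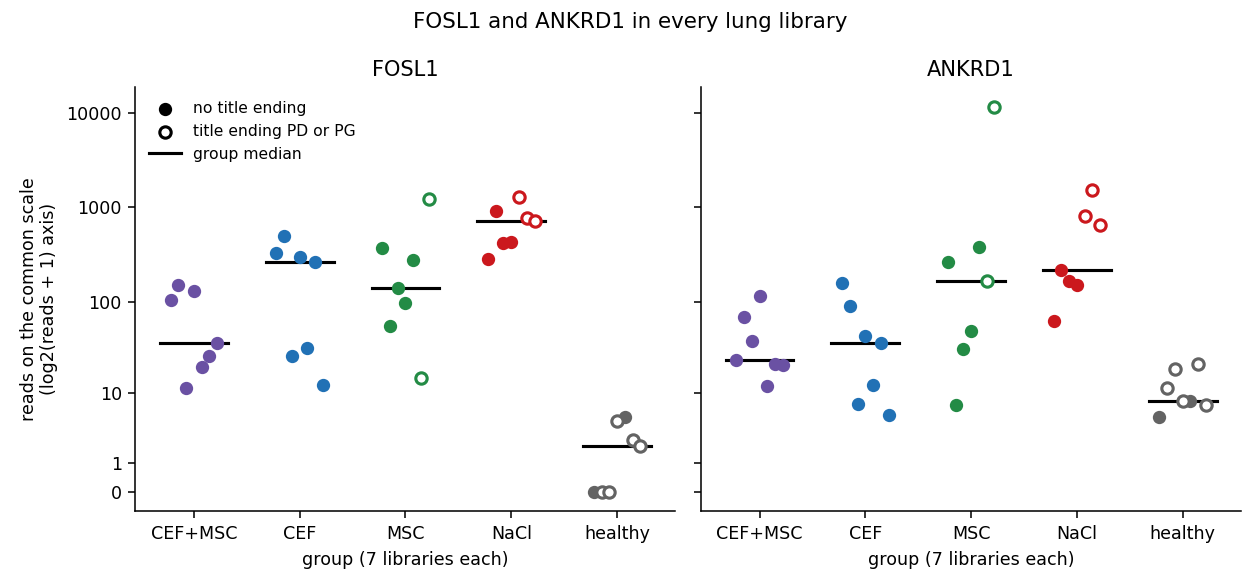
Reads of FOSL1 (left) and ANKRD1 (right) on the common scale, drawn on a log2(reads + 1) axis, with 1 point per library, open points for libraries with a title ending and a bar at the group median. FOSL1 leaves no overlap between any pneumonia group and healthy, while for ANKRD1 1 MSC library stands at 11613 reads and the NaCl libraries with a title ending lie above those without.

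Untreated pneumonia with ventilation was set against health to ask what the disease did to the lung. In the NaCl lungs FOSL1 averaged 549 ± 278 normalized reads in the deposited table, against 1.62 ± 1.73 in healthy lungs (SD, n = 7 each). The log2 fold change was 7.86 by limma on log2(value + 1) (SE 0.45). The authors' deposited table gives a log2 fold change of 8.31 for FOSL1 (SE 0.54), which is the eleventh highest by rank (11 of 13032 genes). Because the healthy libraries held 15 FOSL1 reads in all, against 3760 in the NaCl libraries, the fold depends on how low counts are treated. A ratio of pooled reads per size factor was 321, with a 95% exact interval of 194 to 574 for counting error only.

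ANKRD1 averaged 408 ± 418 normalized reads in NaCl lungs, against 9.03 ± 4.95 in healthy lungs (SD, n = 7 each). The log2 fold change was 4.77 (SE 0.59) by limma and 5.52 (SE 0.59) in the authors' deposited table, where ANKRD1 ranks at 84 of 13032. Both genes stood above healthy in all 7 NaCl libraries, as did 14.7% of all genes. These libraries include replicate 2, the 1 NaCl library with the S00 mark (926.5 FOSL1 and 219.5 ANKRD1 reads on the common scale). Without that library the limma values were 7.77 (SE 0.48) for FOSL1 and 4.86 (SE 0.63) for ANKRD1. Among all 9545 genes tested in this comparison, 60.6% were called by limma at a Benjamini-Hochberg adjusted p under 0.05, with 29.7% of the genes tested higher and 30.9% lower. Scaled by total reads, the median of all genes moved by -0.46 on the log2 scale, and 25.3% rather than 49% of the called genes were higher. FOSL1 and ANKRD1 then stood at 7.64 (SE 0.52) and 4.36 (SE 0.64), far above that shift.

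The NaCl libraries split by title ending for ANKRD1 but not for FOSL1. ANKRD1 reads were 820, 1528 and 657 in the 3 NaCl libraries with the ending, and 63.2, 219.5, 166 and 152 in the 4 without it. The sets did not overlap. The difference in mean log2 was 2.77, rank 39 from the highest of 9545 genes, where the median gene differed by 0.05. FOSL1 reads overlapped, at 1283, 779 and 726 with the ending, against 286, 926.5, 420 and 428 without it, a difference of 0.94 and rank 1035. Within libraries lacking the ending, ANKRD1 was still above healthy by 4.16 on the log2 scale (SE 0.53), and within libraries with it by 6.12 (SE 0.40). For FOSL1 it was 7.36 (SE 0.70) without the ending and 8.44 (SE 0.54) with it. Within marked libraries these estimates set 3 PG lungs against 1 PG and 4 PD healthy lungs, and the healthy PG lung held 2.55 FOSL1 and 21.6 ANKRD1 reads.

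Some other genes, picked after their values were seen, moved with that title mark among NaCl lungs. CCN2, a matricellular growth factor and YAP target, had 7864 to 11484 reads with the ending, against 1388 to 6553 without it. The coactivators YAP1 (3309 to 4031 reads with, 1096 to 2274 without) and WWTR1 (9272 to 12121 with, 2779 to 5257 without) also did not overlap. Neither did SRF, the transcription factor of actin and contractile genes, at 471 to 846 reads with the ending and 215 to 316 without. CCN1, another YAP target, did overlap (15426 to 18969 with, 3945 to 16924 without). So did FHL2 (170 to 300 with, 37.2 to 177 without), JUN and ANKRD2. The share of all genes without overlap in this split was not counted. Summed smooth muscle markers, 6 of 8 with reads, were 15156 to 52188 with the ending and 2403 to 5528 without. Summed neutrophil markers, 7 of 10 with reads and CSF3R listed at 0, ran the other way, at 179217 to 617812 with the ending and 896161 to 1651843 without. In bulk lung, fewer cells of a type and less RNA per cell cannot be told apart, and the part of these markers in the ANKRD1 difference was not tested.

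The AP-1 family other than FOSL1 was higher in NaCl lungs than in healthy lungs. Levels of these and the following list genes are mean ± SD of normalized reads in the deposited table (n = 7 each), and fold changes and adjusted p are limma's. Of 14 listed genes 7 could be tested, and all 7 tested genes were called higher, beside 29.7% of all genes, with a median log2 fold change of 3.43 beside 0.005 over all genes. FOSB and BATF2 were listed at 0 in every library, and 5 genes, JUNB and JUND among them, have no row by symbol and are not analysed here. MAFF, a small MAF protein, averaged 423 ± 149 in NaCl lungs and 26.8 ± 9.32 in healthy lungs (log2 fold change 3.92, SE 0.26, limma adjusted p = 2.2e-08). FOSL2, the closest relative of FOSL1, averaged 556 ± 432 in NaCl lungs and 32.6 ± 9.09 in healthy lungs (3.79, SE 0.37, adjusted p = 5.8e-07). ATF3, an AP-1 partner induced by stress, was higher by 3.52 (SE 0.50, adjusted p = 2.1e-05) and FOS by 3.43 (SE 0.43, adjusted p = 6.2e-06). JUN, the main dimer partner, was higher by 0.69 (SE 0.22, adjusted p = 0.0124), with 5 of 7 NaCl libraries above all healthy ones. Scaled by total reads, all 7 estimates stayed above 0 with a median of 2.98. That scaling moved the median gene by -0.46, which is large beside the JUN value, and the JUN call under it is not given here.

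Of 14 tested ERK immediate early and feedback genes, which act around FOSL1, 11 rose and 1 fell, beside 29.7% of all genes higher and 30.9% lower. IER3, an immediate early gene, rose by 4.40 (SE 0.37, adjusted p = 1.5e-07) and DUSP1, a phosphatase that switches MAP kinases off, by 2.47 (SE 0.21, adjusted p = 2.0e-07). SPRED2, an inhibitor of the RAS to ERK step, fell by 0.34 (log2 change -0.34, SE 0.14, adjusted p = 0.0426). Of 9 tested EGF family ligands and receptors, 2 rose and 4 fell, near the same shares of all genes. The risers were ligands, HBEGF by 4.81 (SE 0.35, adjusted p = 4.1e-08) and AREG by 4.14 (SE 0.68, adjusted p = 8.0e-05). The receptor ERBB2 averaged 429 ± 91.5 in NaCl lungs and 2147 ± 206 in healthy lungs (log2 change -2.34, SE 0.13, adjusted p = 7.9e-09), and ERBB3 changed by -1.75 (SE 0.33, adjusted p = 0.000304). The receptor ERBB4 and the ligand NRG1 were also called lower.

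Of 7 tested genes listed as FOSL1 or AP-1 targets, 6 rose and none fell, beside 29.7% and 30.9% of all genes, with a median of 2.76. TIMP1, an inhibitor of matrix metalloproteinases, averaged 166818 ± 50430 in NaCl lungs and 4696 ± 2399 in healthy lungs (log2 fold change 5.23, SE 0.31, adjusted p = 7.9e-09). CD44, the hyaluronan receptor, rose by 2.93 (SE 0.23, adjusted p = 7.5e-08).

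Of 18 tested YAP-TEAD targets, 7 rose, 4 fell and 7 were not called. With 60.6% of all genes called, 29.7% higher and 30.9% lower, these counts lie near the background. Their median of 0.14 lay near that of all genes and became -0.31 when scaled by total reads. GADD45A, a growth arrest gene, rose by 1.90 (SE 0.18, adjusted p = 4.3e-07) and ASAP1, a regulator of ARF GTPases, by 1.90 (SE 0.27, adjusted p = 2.0e-05). ARHGEF17, a guanine nucleotide exchange factor, changed by -2.05 (SE 0.21, adjusted p = 1.0e-06) and AJUBA, an adaptor that restrains Hippo kinases, by -1.75 (SE 0.33, adjusted p = 0.0003). CCN1, a matricellular protein that with CCN2 is the usual readout of YAP beside ANKRD1, averaged 9817 ± 4833 in NaCl lungs and 1833 ± 847 in healthy lungs (2.33, SE 0.37, adjusted p = 6.0e-05). CCN2 was not called, at 4654 ± 3311 in NaCl lungs and 5632 ± 1822 in healthy lungs (-0.65, SE 0.47, adjusted p = 0.248).

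Among 14 tested Hippo pathway components 3 rose and 5 fell, again near the 60.6% called of all genes. WWTR1 rose by 1.03 (SE 0.29, adjusted p = 0.00622), and YAP1 was not called (0.32, SE 0.30, adjusted p = 0.358). On the common scale NaCl libraries without a title ending held 2779 to 5257 WWTR1 reads, overlapping the healthy 2343 to 4186. Those with it held 9272 to 12121. YAP1 held 1096 to 2274 without the ending and 3309 to 4031 with it, beside 992 to 2525 in healthy lungs. MOB1A (1.91, SE 0.33, adjusted p = 0.00013) and STK3 (0.97, SE 0.23, adjusted p = 0.00158), parts of the kinase cascade that restrains YAP, rose. VGLL3, a TEAD cofactor (-1.95, SE 0.37, adjusted p = 0.000283), and WWC1, an activator of the cascade (-1.37, SE 0.27, adjusted p = 0.000362), fell. MOB1B, a relative of MOB1A, and TEAD3 and FAT4 were also called lower. Of 10 tested SRF and MRTF genes 3 rose and 1 fell, fewer called than the 60.6% of all genes. The risers were SRF itself (1.71, SE 0.28, adjusted p = 0.0001), the actin-binding TAGLN2 (0.67, SE 0.18, adjusted p = 0.00441) and the LIM protein FHL2 (1.51, SE 0.43, adjusted p = 0.00608), and MRTFB, an SRF coactivator, fell (-0.81, SE 0.21, adjusted p = 0.00368).

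Of the 6 tested muscle relatives of ANKRD1, 2 rose and 3 fell, beside 29.7% of all genes higher and 30.9% lower. ANKRD2 averaged 21.3 ± 6.48 in NaCl lungs and 4.60 ± 5.31 in healthy lungs (2.33, SE 0.41, adjusted p = 0.000179), and FHL2 was the other riser. TCAP, the titin cap (-1.67, SE 0.26, adjusted p = 4.7e-05), and CAPN3, a muscle calpain (-1.61, SE 0.27, adjusted p = 9.5e-05), fell, while TTN has no row by symbol. ANKRD23, like ANKRD2 an ankyrin repeat gene of this list, was also called lower. Summed striated and cardiac muscle markers, 13 of 19 with reads, were 204 to 977 in NaCl lungs and 186 to 658 in healthy lungs, and NPPA, CKM and NKX2-5 were listed at 0 throughout. Neutrophil markers stood apart, at 179217 to 1651843 in NaCl lungs and 15338 to 117448 in healthy lungs. Alveolar type I markers ran from 29931 to 114346 in NaCl lungs and from 141585 to 195588 in healthy lungs. The part of these cell types in the list changes was not tested.

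**Figure D2:**
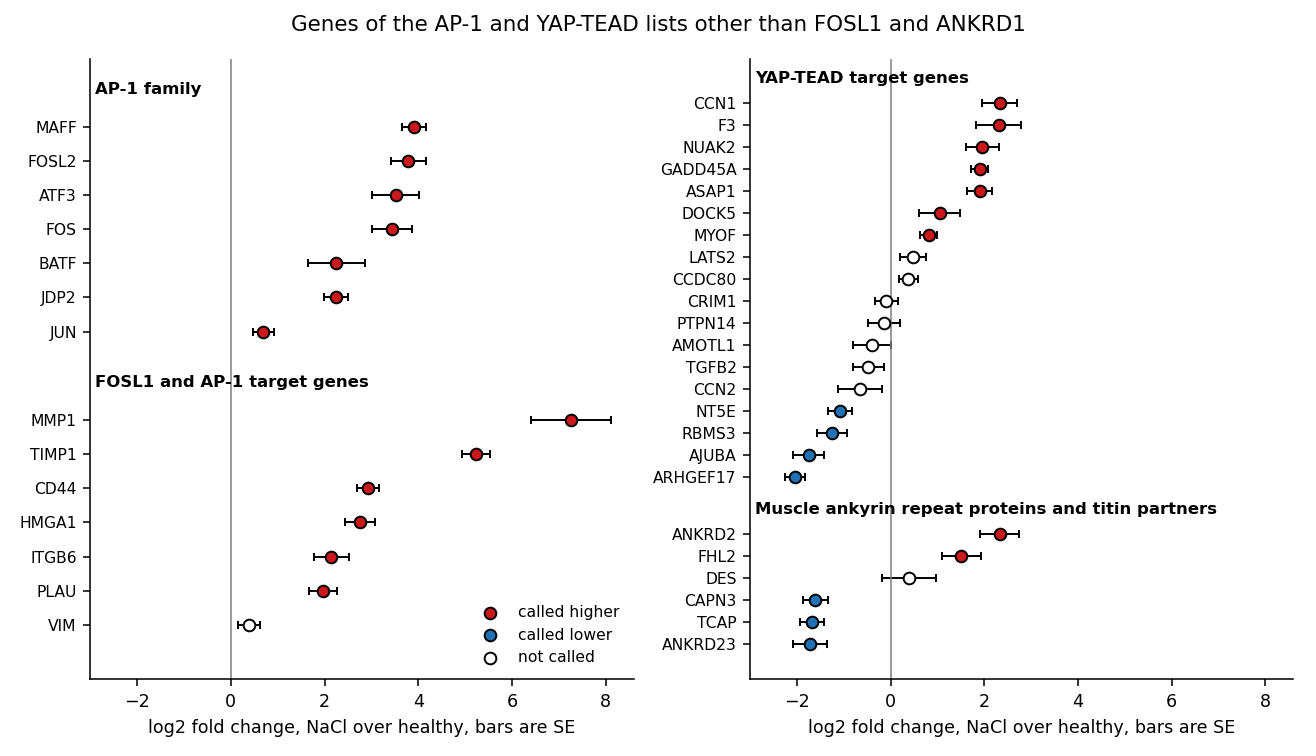
Limma log2 fold changes of NaCl over healthy lungs for tested genes of 4 lists, with bars for the SE, filled points for called genes (red higher, blue lower) and open points for the rest. All 7 AP-1 genes lie right of 0, whereas the 18 YAP-TEAD targets run from 2.33 (CCN1) to -2.05 (ARHGEF17).

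MSC therapy was compared with saline to see whether the infused cells alter the diseased lung. For FOSL1 the 7 MSC libraries held 374, 55.8, 141, 97.8, 276, 15.1 and 1216 reads on the common scale, against 286, 926.5, 420, 428, 1283, 779 and 726 in NaCl lungs. Replicate 7 was the 1 MSC lung above the NaCl median, and 5 lay below the whole NaCl range. The log2 fold change was -2.04 by limma (SE 0.73), and the authors' deposited table gives -1.15 (SE 0.66). It was -1.60 (SE 0.54) in libraries without a title ending and -2.66 (SE 1.66) in those with it.

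For ANKRD1 the 7 MSC libraries held 268, 7.28, 31.6, 49.3, 384, 169 and 11613 reads, against the NaCl values given above. The first 6 averaged 151.5 ± 150.7 reads (SD, n = 6), and 3 of the 7 lay below the lowest NaCl library while replicate 7 lay above the highest. That library held 9664 of the 14774 ANKRD1 reads in the study, or 65.4%. Its level was 7.60 times that of the next pneumonia library, the largest such excess among 7992 genes with a mean of at least 50 reads.

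The sign of the ANKRD1 effect of MSC depended on how that library was handled. The authors' deposited table gives a log2 fold change of -1.56 (SE 0.74) with a mean of 272, while its 14 deposited values average 911.5. Such a mismatch of over 0.1% held for 43 of 12976 genes, or 0.331%, and not for FOSL1. DESeq2 with its replacement of outlying counts returned the authors' estimate within 0.001 for all 12976 genes. With the replacement turned off it gave 1.80 (SE 1.22) for ANKRD1, and edgeR gave 1.79. Limma gave -0.94 (SE 1.25), and -1.96 (SE 0.92) without MSC replicate 7. It gave -1.01 (SE 1.00) in libraries without a title ending and 0.60 (SE 1.64) in those with it, which hold replicate 7. For FOSL1 no tool changed the sign.

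**Figure D3:**
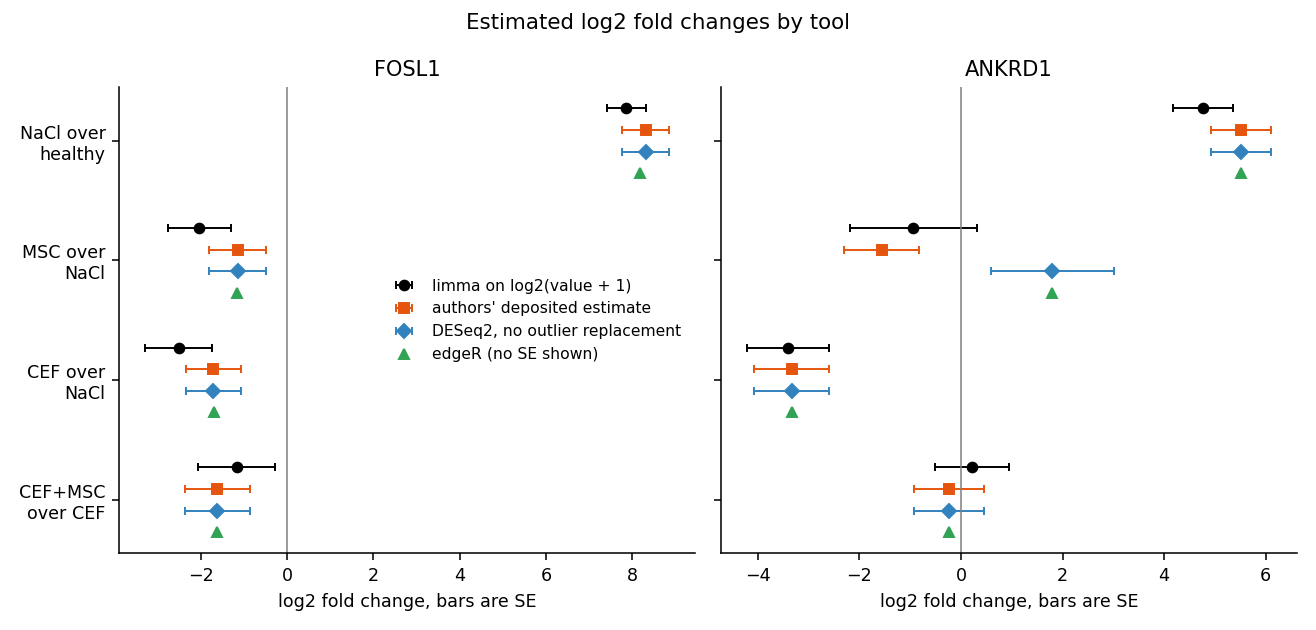
Log2 fold changes of FOSL1 (left) and ANKRD1 (right) in the 4 comparisons, with the first named group over the second, by limma, the authors' deposited table, DESeq2 without outlier replacement and edgeR, bars giving the SE where there is one. The ANKRD1 estimates for MSC over NaCl fall on both sides of 0, from -1.56 to 1.80, and for NaCl over healthy all 4 lie above 4.

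Other mechanical and stress genes of MSC replicate 7 were examined among the 28 pneumonia libraries. CCN1 (24346 reads) and ANKRD2 (80.5 reads) were the highest of the 28 there, against highest values elsewhere of 18969 and 40.2. CCN2 (11821) and FOSL1 (1216) ranked 2 and FHL2 (254) ranked 3. Of the other AP-1 family genes JUN ranked 5, FOS and MAFF 7, ATF3 12, JDP2 13, and FOSL2 and BATF 22. Of the other muscle relatives of ANKRD1, DES ranked 6, CAPN3 22, TCAP 24 and ANKRD23 26. Of 18 other YAP-TEAD targets with reads, 6 were among the 5 highest libraries in replicate 7 and 6 ranked below 14. Among muscle transcripts there, ACTC1, cardiac actin, stood at 216 reads (rank 4, against a median of 37.9 in the other libraries) and TNNT2, cardiac troponin T, at 52.9 (rank 8, against 14.8). CASQ2, a calcium store protein, stood at 40.9 (rank 11, against 20.1), and MYBPC3, a thick filament protein, at 21.6 (rank 24, against 61.2). MYH7, MYL2, MYL3 and CSRP3 had no read there, and their median was also 0 in the other libraries. The striated and cardiac sum was 378.5, within the 144 to 597 of the MSC group. The sum of smooth muscle markers was 18702, within 3807 to 24381, and the part of muscle RNA in the ANKRD1 value was not tested.

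Ceftaroline was compared with saline, given to other rabbits, to ask what the antibiotic does to the diseased lung. These comparisons share the NaCl libraries with the one above. FOSL1 held 327, 500, 26.4, 301, 31.7, 262.5 and 12.4 reads in the 7 CEF lungs. All 7 were below the NaCl median, and 3 formed a low set with under 32 reads. The limma log2 fold change was -2.52 (SE 0.77), and the authors' deposited table gives -1.71 (SE 0.64).

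ANKRD1 in the CEF lungs held 159, 89.55, 7.55, 43.7, 12.6, 36.2 and 5.57 reads. All 7 lay below the NaCl median and 5 below the whole NaCl range. The limma log2 fold change was -3.40 (SE 0.81). In the authors' deposited table it is -3.33 (SE 0.74), number 12 from the lowest of 13108 genes and number 2 among the 7918 with a mean of at least 50. Since no CEF library carries a title ending, the comparison was repeated without the 3 NaCl libraries that do, which gave -2.22 (SE 0.83) for ANKRD1 and -2.12 (SE 0.98) for FOSL1.

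The same 3 CEF lungs, replicates 3, 5 and 7, were lowest in both genes. They held neutrophil marker sums of 136313, 115951 and 54202, against 320824 to 1677077 in the other 4 CEF lungs. Their fibroblast marker sums were 43218, 28307 and 41748, against 6191 to 7572 in the others, with PDGFRA and MFAP4 listed at 0. Alveolar type II sums in replicates 3, 5 and 7 were 113131, 51618 and 120255, against 9350 to 22664 in the others, and macrophage sums were 14061, 25651 and 14160, against 26749 to 46346. The sums of basal or injured epithelium and of mesothelial markers were also higher, and endothelial sums lower, in these 3 lungs without overlap. Of 12 marker sums 7 thus separated the same lungs as FOSL1 and ANKRD1 did, and their part was not tested. The basal or injured epithelium and mesothelial lists share KRT19, so their sums are not independent. In MSC replicate 7, KRT19 held 8975 of the mesothelial sum of 9166. These lungs were picked by their FOSL1 and ANKRD1 levels, and the share of all genes that separated them was not counted.

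Adding MSC to ceftaroline was set against ceftaroline alone. FOSL1 held 104, 152, 11.5, 129.5, 19.9, 26.5 and 36.4 reads in CEF+MSC lungs, all below the CEF median, though 3 CEF lungs lay equally low. Its limma log2 fold change was -1.17 (SE 0.89), and the authors' deposited table gives -1.61 (SE 0.75). ANKRD1 held 23.7, 69.1, 37.7, 116, 12.2, 21.5 and 21.0 reads in CEF+MSC lungs. They lay wholly within the CEF range. The ANKRD1 estimates were 0.22 (SE 0.73) by limma and -0.24 (SE 0.69) in the authors' deposited table, and leaving out CEF replicate 7 turned the limma value to -0.15. These values are smaller than either SE.

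Limma called no gene of the 10 pathway lists in the 3 therapy comparisons. DESeq2, like the authors' deposited tables, called 1 AP-1 family gene lower for MSC over NaCl, 1 for CEF over NaCl and 0 for CEF+MSC over CEF. Over all genes limma called 0 of 9446 genes for MSC over NaCl (1672 at an unadjusted p under 0.05), 0 of 9614 for CEF over NaCl (1760 unadjusted) and 4 of 9924 for CEF+MSC over CEF, or 0.0403%. In the same 3 comparisons edgeR called 0, 0 and 11 genes (0%, 0% and 0.111%) and DESeq2 called 337, 499 and 108 (3.38%, 4.61% and 0.971%). The authors' deposited tables hold 336, 501 and 108 (3.33%, 4.69% and 0.963% of genes with an adjusted p). All 7 tested AP-1 family genes had estimates below 0 in each therapy comparison, with medians of -0.73 for MSC over NaCl, -0.88 for CEF over NaCl and -0.81 for CEF+MSC over CEF. Every tested neutrophil marker also had an estimate below 0, 6, 7 and 6 genes in the same comparisons, with medians of -1.53 (MSC over NaCl), -1.32 (CEF over NaCl) and -1.89 (CEF+MSC over CEF), and their part in the AP-1 estimates was not tested. Estimates below 0 were 48.9%, 48.1% and 49.8% over all genes. Scaled by total reads, which moved the median gene by 0.30, 0.25 and 0.15, the AP-1 counts below 0 were 7, 6 and 7. FOSL2 stood at -1.34 (SE 0.54), -0.88 (SE 0.51) and -1.35 (SE 0.65) in the same comparisons, none called. HBEGF stood at -2.06 (SE 0.63), -2.09 (SE 0.61) and -1.21 (SE 0.56). CCN1 stood at -0.68 (SE 0.59), -1.57 (SE 0.51) and -0.64 (SE 0.50), CCN2 at -0.20 (SE 0.65), -0.94 (SE 0.55) and 0.67 (SE 0.52), and ANKRD2 at -0.11 (SE 0.39), -0.21 (SE 0.31) and -0.26 (SE 0.43).

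Across single pneumonia lungs the 2 genes went up and down together. Over the 28 pneumonia libraries Pearson's r between their log2 levels was 0.768 and Spearman's rho 0.786, given as a description since the lungs share therapy and infection. With each group's mean taken away r was 0.706. Within groups of 7 it was 0.622 in CEF+MSC, 0.934 in CEF, 0.687 in MSC and 0.786 in NaCl, and it was -0.105 in healthy lungs, where both were near their floor. Leaving out any 1 library kept r between 0.744 and 0.833, and without the 2 libraries farthest from the FOSL1 median it was 0.763. ANKRD1 ranked only 466 of 6554 genes by r with FOSL1, and FOSL1 115 by r with ANKRD1, so many genes were more like each of them.

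**Figure D4:**
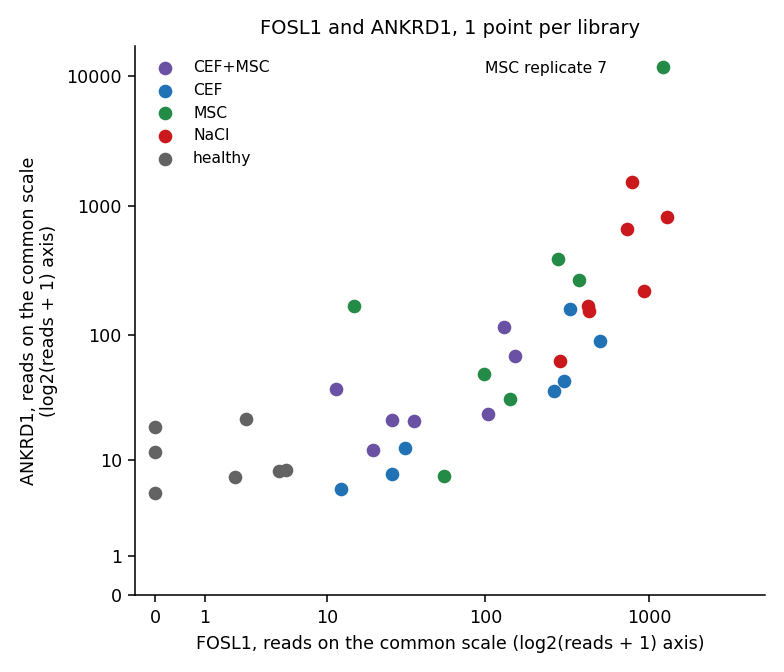
FOSL1 (horizontal) against ANKRD1 (vertical), 1 point per library, both on log2(reads + 1) axes and coloured by group. The pneumonia lungs form an ascending band with MSC replicate 7 at its top, and the healthy lungs sit at the low end of both axes without a slope.

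The genes most like each member differed. Closest to FOSL1 over the 28 libraries were WDR77 (r = 0.955), a partner of an arginine methyltransferase, ARF6 (0.953), a GTPase of membrane traffic, ADAMTS9 (0.948), a secreted metalloproteinase, PLK3 (0.947), a stress kinase, and EBNA1BP2 (0.946), a ribosome assembly factor. With group means taken away these stayed at 0.909 to 0.930. All 5 were called higher in NaCl than in healthy lungs, by 1.31 (EBNA1BP2) to 6.35 (ADAMTS9) on the log2 scale. ECHDC3 (r = -0.951) and AMACR (-0.942), an enzyme of branched fatty acid breakdown, ran opposite to FOSL1.

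Closest to ANKRD1 were FERMT2 (0.896), an integrin activator at focal adhesions, UCK2 (0.893), a pyrimidine salvage kinase, TM4SF1 (0.879), a membrane protein of endothelium, AKAP12 (0.875), a scaffold for protein kinases, and ITCH (0.873), a ubiquitin ligase. AKAP12 ranged from 345 to 14282 reads over the 28 lungs and FERMT2 from 3012 to 30469. OXSM (-0.875), of mitochondrial fatty acid synthesis, and TRMO (-0.872), a tRNA methyltransferase, ran opposite. No gene was in the first 5 of both.

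The members also differed in part in the marker sums they went with. FOSL1 had an r of 0.802 with summed neutrophil markers and -0.759 with fibroblast markers over the 28 libraries, beside 0.057 with smooth muscle markers. For ANKRD1 the values were 0.420, -0.364 and 0.498. With striated and cardiac muscle markers r was 0.549 for ANKRD1 and 0.358 for FOSL1. The highest for ANKRD1 was 0.688 with endothelial markers, of which CLDN5 was listed at 0, and FOSL1 had 0.526 with them. Pneumonia libraries with a title ending had endothelial sums of 23012 to 26698, against 10114 to 27572 in the others. These r values were not computed without them. In NaCl over healthy lungs 1 of 7 tested endothelial markers was called higher and 5 lower, so their sum does not stand for each marker. With the total reads of the library r was -0.307 for FOSL1 and -0.364 for ANKRD1. Within the NaCl group the extremes ran the other way: the lung with the most FOSL1 reads (1283) had the lowest neutrophil sum (179217) and the lung with the fewest (286) had the highest (1651843). The healthy library with the highest neutrophil sum (117448) had 2.06 FOSL1 reads, while CEF replicate 5 with a sum of 115951 had 31.7 and CEF+MSC replicate 7 with 120882 had 36.4.

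**Figure D5:**
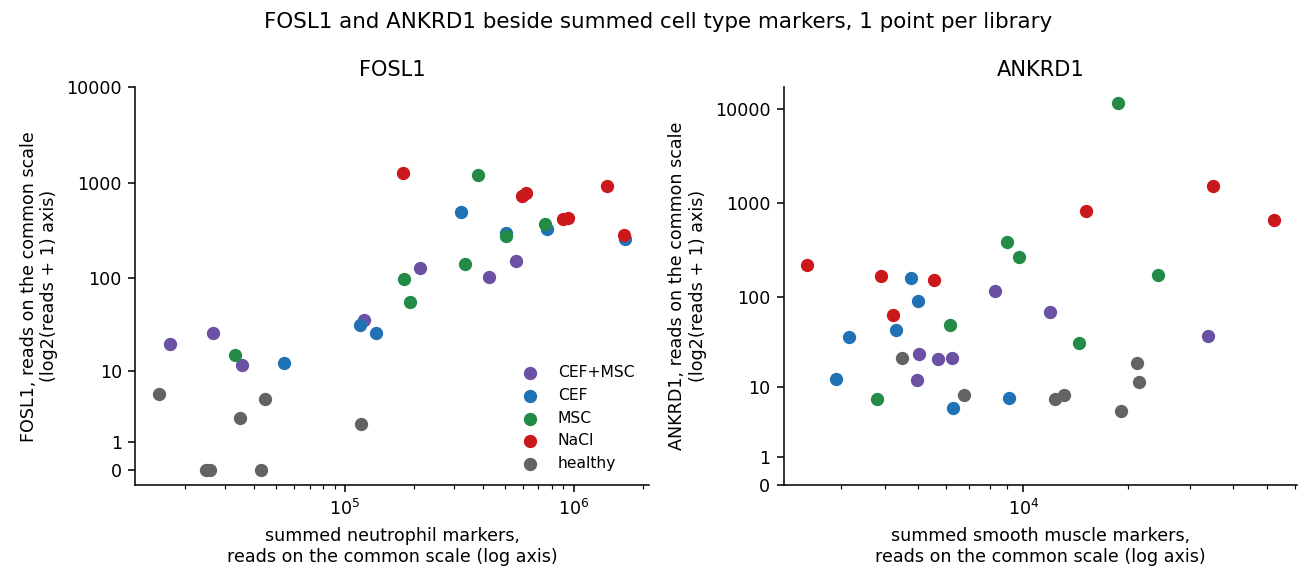
FOSL1 against summed neutrophil markers (left) and ANKRD1 against summed smooth muscle markers (right), 1 point per library, on log axes and coloured by group. FOSL1 ascends with the neutrophil sum among pneumonia lungs, with healthy lungs below the band, and ANKRD1 spreads widely at any smooth muscle sum.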

How the data were processed

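Per the labels' protocols, lung libraries were stranded and read singly over 75 bp, bcl2fastq2 2.18.12 wrote the reads, and Cutadapt 1.15 removed adapters. TopHat2 2.1.1, featureCounts 1.5.2 and DESeq2 1.24.0 are named by the submitters' processing notes, without role or order. Build and annotation: not given in the sources used here, so no coordinates or sequences are printed. Per the file headers, each of 4 tables by the authors holds, for 14 libraries, a deposited signal per gene (reads divided by a size factor), with a mean, a log2 fold change and its SE, a Wald score, a p-value and an adjusted p-value. All 1325464 values checked were whole multiples of the value of 1 read within a relative tolerance of 1e-06 (100% of values), so reads were recovered. The 14 libraries in more than 1 table gave identical reads.

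Members, lists, tests and the rule for named genes were chosen with earlier results of these data known. Genes with at least 10 in at least 7 of 14 libraries entered a two-sided limma 3.58.1 fit with trend (R 4.3.3), on log2(value + 1) of the 2 groups only, without a covariate. A gene was called where its Benjamini-Hochberg adjusted p lay under 0.05. Fold changes on this scale understate changes of low genes. FOSL1 and ANKRD1 passed this filter in all 4 tables. edgeR 4.0.16 and DESeq2 1.42.0 on recovered reads were alternatives. The common scale uses median-of-ratios factors over 9765 genes with a read in every library. Pathway genes named are the 2 with the lowest p in each direction per list (all where 4 or fewer were called) and a fixed set (FOSL2, JUN, JUNB, FOS, ATF3, CCN1, CCN2, ANKRD2, YAP1, WWTR1, SRF). Genes most like a member are the 5 highest and 2 lowest by r among 6554 named genes whose mean reached 50. The limma and edgeR scripts were tested on simulated data. No explanation was tested. Further genes of MSC replicate 7 and of the title ending split were named after their values were seen, as were ERBB4, NRG1, MOB1B, TEAD3, FAT4 and ANKRD23.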

Additional observations from a re-analysis of the deposited data

How the results depend on the processing

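The FOSL1 estimates kept their sign in all 4 comparisons under every alternative run. ANKRD1 kept it for NaCl over healthy and for CEF over NaCl, changed it for MSC over NaCl with DESeq2 without outlier replacement (1.80), edgeR (1.79) and libraries with a title ending (0.60, against -1.01 without), and took both signs for CEF+MSC over CEF (-0.24 to 0.36). For NaCl over healthy, FOSL1 was 6.27 with a pseudocount of 5, ANKRD1 was 6.12 in libraries with a title ending, and called genes were 3650 in place of 5788 without those libraries. Leaving out 1 library each gave 5437 to 5801 called genes, 7.68 to 8.07 for FOSL1 and 4.39 to 5.15 for ANKRD1. For MSC over NaCl, called genes were 0 by limma, 337 by DESeq2 with or without outlier replacement, 336 in the authors' deposited table, 7 without title endings, 1 with no filter on low values and 293 scaled by total reads (288 higher and 5 lower). Leaving out 1 library gave 0 to 3 called genes, -2.54 (without MSC replicate 7) to -1.50 (without MSC replicate 6) for FOSL1 and -1.96 (without MSC replicate 7) to -0.24 (without MSC replicate 2) for ANKRD1. For CEF over NaCl, called genes were 0 by limma, 499 by DESeq2, 500 without outlier replacement and 501 in the authors' deposited table. Leaving out 1 library gave 0 to 189, the highest without NaCl replicate 1, with -2.89 to -2.01 for FOSL1 and -3.81 to -3.02 for ANKRD1. For CEF+MSC over CEF, 4 called genes became 108 by DESeq2 and in the authors' deposited table, 110 without outlier replacement, 11 by edgeR, 2 at an adjusted p under 0.01, 8 with a minimum of 50 and 23 scaled by total reads (all higher). Leaving out 1 library gave 2 to 14, -1.67 (without CEF replicate 7) to -0.79 (without CEF replicate 2) for FOSL1 and -0.15 to 0.63 for ANKRD1. The likeness of the 2 genes was 0.706 with group means taken away. The causes of these shifts were not tested. Title numbers were not used as pairs. Deviations from the group mean in same-numbered CEF and CEF+MSC libraries correlated at -0.385 to 0.484 over all genes, which does not settle whether the lungs are paired. A replicate block on title numbers gave 0 called genes for CEF+MSC over CEF and -1.66 for ANKRD1 in CEF over NaCl, where only 4 numbers are shared. With this block FOSL1 stayed at -1.165 for CEF+MSC over CEF, with an SE of 0.475 in place of 0.894. Of 320 list counts under other tools and scaling, 287 stayed within 1.5 times. Depth limits FOSL1 in healthy lungs, with 0 to 7 reads per library.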

Other observations

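Of 9 tested early stress genes 7 were called higher by limma in NaCl over healthy lungs and none lower, beside 29.7% and 30.9% of all genes, with a median log2 fold change of 2.44. CDKN1A, the cell cycle inhibitor induced by p53 and stress, averaged 1386 ± 289 in NaCl lungs and 252.5 ± 30.7 in healthy lungs (log2 fold change 2.44, SE 0.13, limma adjusted p = 5.0e-09). HMOX1, the haem-degrading enzyme of oxidative stress, averaged 22861 ± 15514 in NaCl lungs and 1562 ± 324 in healthy lungs (3.64, SE 0.33, limma adjusted p = 3.3e-07). DDIT3 and KLF6 were listed at 0 in all libraries. In the therapy comparisons HMOX1 stood at -1.69 (SE 0.48) for MSC over NaCl, -1.41 (SE 0.43) for CEF over NaCl and -1.18 (SE 0.36) for CEF+MSC over CEF, none called by limma.

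Of 5 tested stretch-sensing and adhesion genes, 3 rose and 1 fell in NaCl over healthy lungs, beside 29.7% and 30.9% of all genes. Their median of 0.55 became 0.09 when scaled by total reads. ITGA5, a fibronectin receptor subunit (1.43, SE 0.23, limma adjusted p = 6.2e-05), and the focal adhesion proteins PXN (1.08, SE 0.20, limma adjusted p = 0.000258) and ZYX (0.55, SE 0.17, limma adjusted p = 0.0117) rose. TRPV2, a cation channel, fell (-0.49, SE 0.20, limma adjusted p = 0.0445). PIEZO1 and PIEZO2 have no row by symbol, and TRPV4, ITGB1 and PTK2 were listed at 0 in all 35 libraries, as were 10217 genes in total, so these stretch sensors are not analysed here. The 4 genes called by limma for CEF+MSC over CEF, chosen for mention after their values were seen, were SEC62 (0.93, SE 0.11), IL18R1 (-1.09, SE 0.16) and 2 without a symbol.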
